A study of Homo sapiens with 48 samples.

Results

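PCK1, the cytosolic phosphoenolpyruvate carboxykinase, was examined together with 9 other genes of gluconeogenesis and of pyruvate entry into mitochondria in PSN1 cells, a pancreatic ductal adenocarcinoma (PDAC) line. The 10 genes were found by symbol among 20241 genes, and 9 of them were among the 12471 genes above 1 CPM (the read count scaled to library size) in at least 3 libraries, which were tested. PCK1 was chosen by its measured values, because it had the largest drop of all genes in cells kept in Talazoparib, an inhibitor of the DNA repair enzyme PARP. Its values in those cells are therefore given as a description, with no test. The other 9 genes were taken from the same pathway, but with earlier results of these data known. RNAseq was done on parental PSN1 cells, which were not exposed to the drug, on TalaR-M cells, which acquired resistance and were maintained in media with 50 nM Talazoparib after 4 months of selection, and on TalaR-DF cells, which are resistant cells moved to drug-free media for weeks. The paper reports that PSN1 resistant cells regained nearly the drug sensitivity of the parental line after weeks without drug. Below, resistant populations or libraries therefore names the origin of TalaR-DF cells, not their state. Each group had 3 replicates harvested from culture. No engineered allele is named for any of them, all derive from the same line, the resistant cells were raised by stepwise increase of the drug, and the sources used here do not say whether they are a clone. Separate cultures are not stated either, so the p-values measure the spread between these samples, which may be technical.

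Gluconeogenesis makes glucose from lactate, amino acids and glycerol, mainly in liver and kidney, and tumour cells with little glucose can run its first steps to supply serine, glycerol phosphate and ribose phosphate. Pyruvate enters mitochondria through a carrier made of MPC1 and MPC2 and is carboxylated there to oxaloacetate by pyruvate carboxylase, the product of PC. PCK1 in the cytosol, or PCK2 in the mitochondrion, turns oxaloacetate into phosphoenolpyruvate, the fructose bisphosphatases FBP1 and FBP2 reverse the committed step of glycolysis, and glucose 6-phosphatases release glucose. PPARGC1A and PPARGC1B encode the coactivators PGC-1α and PGC-1β, and PGC-1α is best known in liver for switching on PCK1 during fasting together with HNF4A and FOXO1.

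Levels are given as log2 CPM, and a listed value of 0 stands for at most 1 CPM. At the depth of these libraries such a 0 allowed at most between 6 and 14 reads. The counts recovered from the values summed to between 12710730 and 14168340 reads in the parental, 12213605 and 13936867 in the TalaR-DF and 8387755 and 14973847 in the TalaR-M libraries. TalaR-M replicate 2 stood apart. It held the lowest sum, its Pearson r to the other TalaR-M libraries across genes was 0.780 against 0.994 between those, and its deviation from them followed transcript length. Where leaving it out changed a call or direction of a gene or count described here, both values are given. Ductal markers were present, with KRT19 at 5.80 and KRT7 at 7.46 in parental cells on the log2 CPM scale, whereas CDH1 was listed at 0 in all 9 libraries.

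PCK1 (ENSG00000124253) lies on the plus strand of chr20:57561080-57568121 in GRCh38, the build that the submitters' processing notes name as hg38, and its canonical transcript has 10 exons and 4320 nt. Parental replicates 1, 2 and 3 had 8.95, 8.94 and 8.99 log2 CPM, a mean of 498 ± 9.27 CPM (SD, n = 3). All 3 TalaR-M libraries were listed at 0, TalaR-M replicate 2 included. The 3 TalaR-DF libraries had 3.49, 3.54 and 3.52 log2 CPM, a mean of 11.5 ± 0.182 CPM (SD, n = 3). The 3 groups did not overlap, and the SD within a group was at most 0.03 log2 units.

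PCK1 was thus at least 498-fold lower in TalaR-M than in parental cells, a bound set at 1 CPM. This drop of 8.96 log2 units or more ranked first of 20241 genes, ahead of COL1A2, which was lower by at least 233-fold, and GPC6, which was lower by at least 127-fold. BIRC7 followed, with a log2 difference of -6.84. In TalaR-DF cells PCK1 was 43.5-fold lower than in parental cells, at a log2 fold change of -5.44 (SE 0.12, limma adjusted p = 1.22e-07), which ranked 6 among all drops in that comparison. The parental libraries of this test are the ones that also served to choose PCK1. TalaR-DF cells held 2.30% of the parental CPM of PCK1. TalaR-M cells were at least 11.5-fold below TalaR-DF cells, so the gene was measurable again in drug-free media but far below the parental level.

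**Figure D1:**
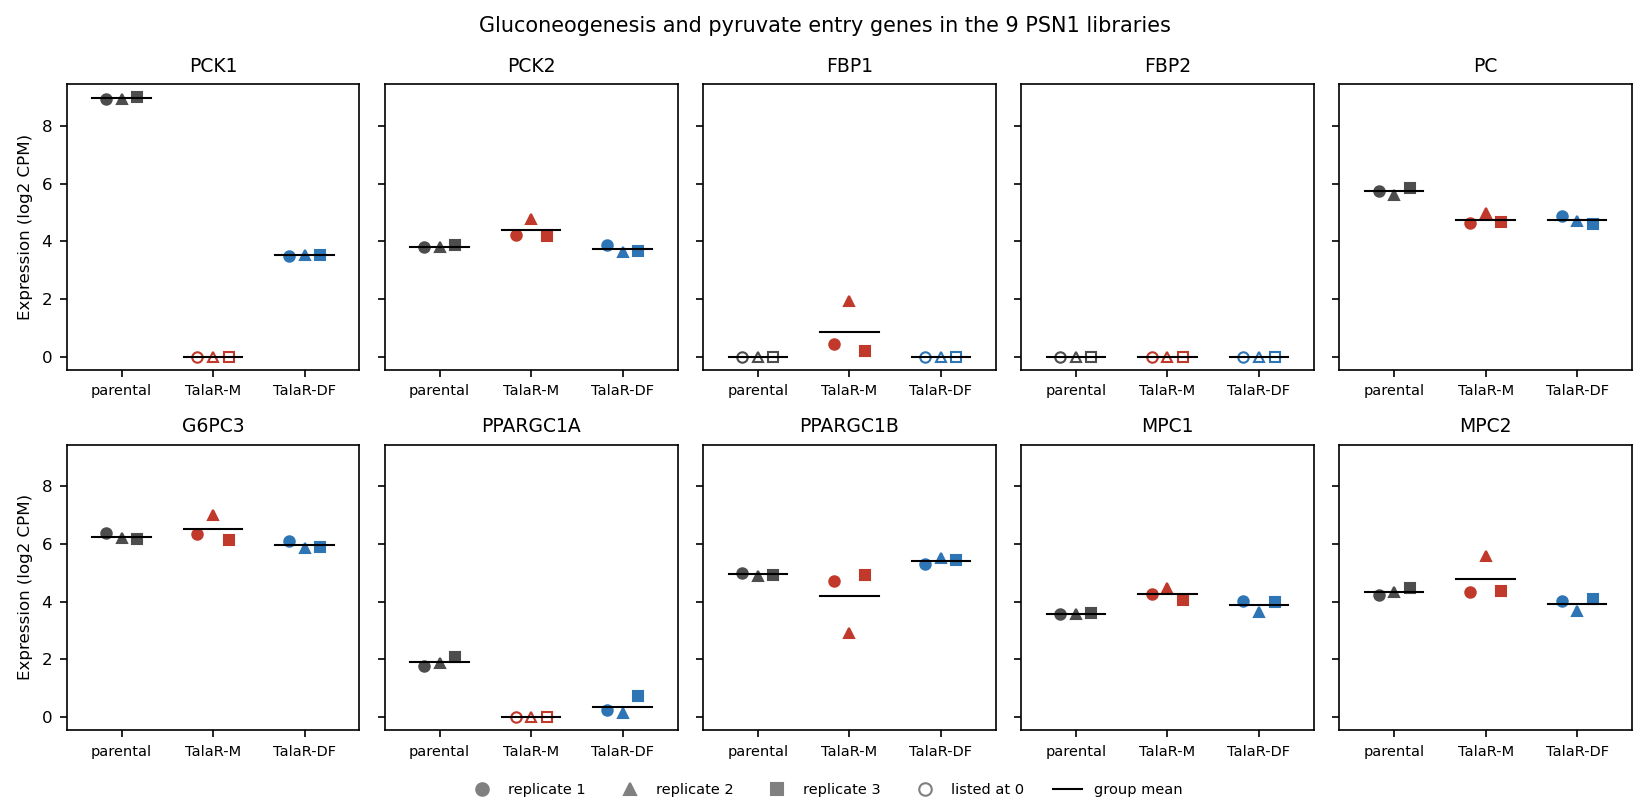
Level of each of the 10 genes in log2 CPM (y axis) in the 3 parental, 3 TalaR-M and 3 TalaR-DF libraries (x axis). Points are libraries with a shape for each replicate, open points are values listed at 0 and lines are group means. PCK1 stands near 9 in parental libraries, at 0 in TalaR-M and near 3.5 in TalaR-DF libraries, while FBP2 is at 0 in all 9.

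Per kilobase of canonical transcript, PCK1 was the most abundant of the 10 in parental cells, at 115 ± 2.15 CPM per kb (SD, n = 3), ahead of G6PC3 at 48.8 ± 3.44. MPC1 at 13.3 ± 0.199 and PC at 12.4 ± 1.07 CPM per kb overlapped in their ranges and come next. MPC2 at 9.16 ± 0.872, PCK2 at 6.48 ± 0.228, PPARGC1B at 2.91 ± 0.101 and PPARGC1A at 0.600 ± 0.0679 CPM per kb completed the order without overlap. In TalaR-DF cells PCK1 stood at 2.65 ± 0.0421 CPM per kb, below PCK2 at 6.06 ± 0.542 and PPARGC1B at 4.05 ± 0.296. PCK1 thus exceeded its mitochondrial counterpart in parental cells and was below it in both resistant populations.

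Of the 9 genes tested, 2 were called lower in TalaR-M than in parental cells, PCK1 and PPARGC1A, and none higher. A call needed an adjusted p under 0.05 and a 2-fold difference, which 13.3% of all genes passed in this comparison. PCK1 is in that count by choice, and the count is not read further. TalaR-DF against parental cells called the same 2 genes lower, against 9.73% of all genes. The parental libraries also served to choose PCK1, so this count is not read further either. In TalaR-M against TalaR-DF cells none of the other 8 genes was called by limma, with 6.93% of all genes called, while PCK2, G6PC3, PPARGC1B and MPC2 had an unadjusted p under 0.05. PCK1 is again not counted as a result, since its TalaR-M values served to choose it. These comparisons share libraries, so they are not independent of each other. Without TalaR-M replicate 2 PC joined the first 2 in TalaR-M against parental cells, where 13.9% of all genes were then called.

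Promoter sequences are shown for PC and PPARGC1A, the genes beside PCK1 that were lower than in parental cells in both resistant populations. They are 250 bases before a start in the RefSeq table of GRCh38.p14, which held entries for 9 of the 10 genes, all but PCK1. The table holds 3 PC starts. The window printed, chr11:66958384-66958633 on the minus strand, is the one at the end of the annotated gene, and the others, chr11:66907954-66908203 and chr11:66906035-66906284, lie inside it. Both windows of PPARGC1A are printed, chr4:24472906-24473155 and chr4:23881102-23881351, also on the minus strand. The upstream window lies far outside the annotated span of the gene given below, and the downstream one lies inside it. Capitals mark TGACG, the core letters of the cyclic AMP response element through which fasting signals act on gluconeogenic genes, searched on both strands as TGACG and CGTCA.
PC: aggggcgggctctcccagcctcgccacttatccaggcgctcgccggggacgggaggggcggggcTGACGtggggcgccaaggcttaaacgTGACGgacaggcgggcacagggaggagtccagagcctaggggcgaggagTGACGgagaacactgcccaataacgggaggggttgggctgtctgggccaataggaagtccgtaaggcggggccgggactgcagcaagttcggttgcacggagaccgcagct
PPARGC1A, upstream start: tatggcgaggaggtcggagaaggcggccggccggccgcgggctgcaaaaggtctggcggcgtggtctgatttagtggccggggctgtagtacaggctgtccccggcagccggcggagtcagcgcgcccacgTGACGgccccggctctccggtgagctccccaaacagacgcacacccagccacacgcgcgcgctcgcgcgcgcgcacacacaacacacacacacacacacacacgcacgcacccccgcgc
PPARGC1A, downstream start: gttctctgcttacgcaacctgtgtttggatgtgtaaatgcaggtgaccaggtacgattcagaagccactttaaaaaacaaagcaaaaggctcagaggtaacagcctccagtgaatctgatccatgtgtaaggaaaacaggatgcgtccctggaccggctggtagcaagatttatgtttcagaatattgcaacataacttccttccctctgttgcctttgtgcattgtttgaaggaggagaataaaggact
TGACG or its complement occurred 3 times before the PC start shown and in neither of the other PC windows, once before the upstream PPARGC1A start and not before the downstream one, and in no window of the other 7 genes with an entry. The letters occur in 21.2% of all 35116 promoter windows of this length. A forkhead site, TGTTTAC, is in 2.98% and an HNF4 site, CAAAGTCCA, in 0.325% of all windows, and neither was found on either strand in those of the 9 genes. Which start PSN1 cells use cannot be read from values per gene.

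PPARGC1A (ENSG00000109819, minus strand of chr4:23755041-23904089, 13 exons) was the other gene called in both resistant populations. Its parental libraries had 1.77, 1.87 and 2.08 log2 CPM. It was listed at 0 in all 3 TalaR-M libraries and at 0.23, 0.13 and 0.73 log2 CPM in the TalaR-DF libraries, with no overlap between the groups. PPARGC1A was at least 3.76-fold lower in TalaR-M cells (log2 fold change of -1.91 at that bound, SE 0.17, adjusted p = 0.000111). In TalaR-DF cells it was 2.92-fold lower (log2 fold change of -1.55, SE 0.17, adjusted p = 0.000476), at 34.7% of the parental CPM. TalaR-M and TalaR-DF cells were not told apart, with a difference of -0.36 (95% interval -0.76 to 0.04, adjusted p = 0.198). The gene is near the floor of 1 CPM in every group, and with a minimum of 5 CPM it was not tested. Lowering the floor to a pseudocount of 0.1 CPM brought it past the threshold in TalaR-M against TalaR-DF cells as well. That setting takes each listed 0 as no reads, so this call rests on the setting.

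PPARGC1B (ENSG00000155846, plus strand of chr5:149730298-149855022, 12 exons) did not follow PPARGC1A. Parental libraries had 5.0, 4.90 and 4.93 log2 CPM and TalaR-DF libraries 5.30, 5.52 and 5.43, all above the parental ones. TalaR-M libraries had 4.71, 2.93 and 4.93, with replicate 2 far below the others. The difference from parental cells was -0.75 in TalaR-M cells (SE 0.46, adjusted p = 0.26) and -0.12 without replicate 2 (adjusted p = 0.276). In TalaR-DF cells it was 0.47 (SE 0.46, adjusted p = 0.588). The spread of TalaR-M replicate 2 enters this error too, since the 3 groups share it, and without that library the adjusted p was 0.000381 for the same difference, short of 2-fold. TalaR-M cells differed from TalaR-DF cells by -1.23 (adjusted p = 0.122), or by -0.60 without replicate 2 (adjusted p = 0.000283).

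Pyruvate carboxylase, PC (ENSG00000173599, minus strand of chr11:66848417-66958386, 23 exons), was at 50.9% of its parental CPM in TalaR-M and at 50.2% in TalaR-DF cells. Parental libraries had 5.74, 5.61 and 5.86 log2 CPM, TalaR-M libraries 4.63, 4.97 and 4.66, and TalaR-DF libraries 4.89, 4.71 and 4.61. Every resistant library was below every parental one, and the resistant groups overlapped. The log2 fold change was -0.98 in TalaR-M (SE 0.15, adjusted p = 0.00249) and -1.0 in TalaR-DF cells (SE 0.15, adjusted p = 0.00273), at 1.97-fold and 1.99-fold just short of the 2-fold threshold. PC passed 2-fold in TalaR-M cells without TalaR-M replicate 2 (-1.09) or parental replicate 2 (-1.04), and in TalaR-DF cells without parental replicate 2 (-1.06) or TalaR-DF replicate 1 (-1.07). It also passed with array weights in both and with median-ratio rescaling in TalaR-DF cells (-1.04). TalaR-M and TalaR-DF cells differed by 0.02 (95% interval -0.34 to 0.37, adjusted p = 0.962). Leaving out TalaR-M replicate 2 gave -0.09 and leaving out TalaR-DF replicate 3 gave -0.05.

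PCK2 (ENSG00000100889, plus strand of chr14:24094053-24110598, 10 exons), the mitochondrial enzyme, was not called in any comparison. Parental libraries had 3.79, 3.79 and 3.88 log2 CPM, TalaR-M libraries 4.21, 4.78 and 4.19, and TalaR-DF libraries 3.87, 3.64 and 3.66. Each TalaR-M library was above each library of the other groups. The difference from parental cells was 0.57 in TalaR-M (SE 0.19, adjusted p = 0.0615), or 0.38 without replicate 2 (adjusted p = 0.00987), short of 2-fold. In TalaR-DF cells it was -0.10 (95% interval -0.53 to 0.33, adjusted p = 0.814). The TalaR-M mean was above the TalaR-DF mean by 0.67 (adjusted p = 0.0555), or by 0.48 without replicate 2 (adjusted p = 0.00334). Of the 2 carboxykinases, PCK2 thus had its highest and PCK1 its lowest level in TalaR-M cells.

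The bisphosphatases were at or near the floor. FBP1 (ENSG00000165140, minus strand of chr9:94603133-94640249) was listed at 0 in all parental and TalaR-DF libraries and at 0.43, 1.92 and 0.19 log2 CPM in TalaR-M libraries. It passed the filter on low values only through TalaR-M, so it could only be higher there. Replicate 2 held the high value. The difference was 0.85 against parental cells (SE 0.39, adjusted p = 0.15) and 0.31 without replicate 2 (adjusted p = 0.0642). With a pseudocount of 0.1 CPM the FBP1 difference was 4.26 and called, against parental (adjusted p = 0.000183) and TalaR-DF cells (adjusted p = 0.000336). That setting takes a listed 0 as no reads, although it stands for at most 1 CPM, so this call rests on the setting. FBP2 (ENSG00000130957), the muscle form beside it on chromosome 9, was listed at 0 in all 9 libraries and was not tested.

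G6PC3 (ENSG00000141349, plus strand of chr17:44070620-44082151, 6 exons) encodes the widely expressed glucose 6-phosphatase. Parental libraries had 6.37, 6.22 and 6.19 log2 CPM, TalaR-M libraries 6.35, 7.02 and 6.15, and TalaR-DF libraries 6.09, 5.87 and 5.91. TalaR-M replicate 2 was the highest of all. The difference from parental cells was 0.25 in TalaR-M cells (SE 0.22, adjusted p = 0.421) and -0.01 without replicate 2. TalaR-DF libraries all lay below the parental ones, with a difference of -0.30 (SE 0.22, adjusted p = 0.435), with an adjusted p of 0.00582 once TalaR-M replicate 2 was out of the shared error. The TalaR-M mean was above the TalaR-DF mean by 0.55 (adjusted p = 0.138), or by 0.30 without replicate 2 (adjusted p = 0.0167).

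MPC1 (ENSG00000060762, minus strand of chr6:166364919-166383013, 5 exons), which is required for pyruvate import, had a higher level in TalaR-M cells than in the parental line. Parental libraries had 3.57, 3.59 and 3.61 log2 CPM, TalaR-M libraries 4.25, 4.49 and 4.05, and TalaR-DF libraries 4.03, 3.64 and 4.00. All resistant libraries exceeded all parental ones. The difference was 0.68 in TalaR-M cells (SE 0.17, adjusted p = 0.0245), or 0.56 without replicate 2 (adjusted p = 0.00311), a 1.60-fold difference that was short of 2-fold. In TalaR-DF cells it was 0.30 (SE 0.17, adjusted p = 0.303), and between the resistant populations 0.37 (adjusted p = 0.187).

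MPC2 (ENSG00000143158, minus strand of chr1:167916675-167937072, 6 exons), its partner in the carrier, was not called. Parental libraries had 4.22, 4.33 and 4.49 log2 CPM, TalaR-M libraries 4.35, 5.60 and 4.36, and TalaR-DF libraries 4.03, 3.68 and 4.10. Without TalaR-M replicate 2 the TalaR-M and parental ranges coincided. The difference was 0.42 in TalaR-M cells (SE 0.33, adjusted p = 0.366) and 0.01 without that replicate (adjusted p = 0.962). It was -0.41 in TalaR-DF cells (SE 0.33, adjusted p = 0.502, and 0.0108 without TalaR-M replicate 2). The TalaR-M mean was above the TalaR-DF mean by 0.83 (adjusted p = 0.14), or by 0.42 without replicate 2 (adjusted p = 0.0226).

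**Figure D2:**
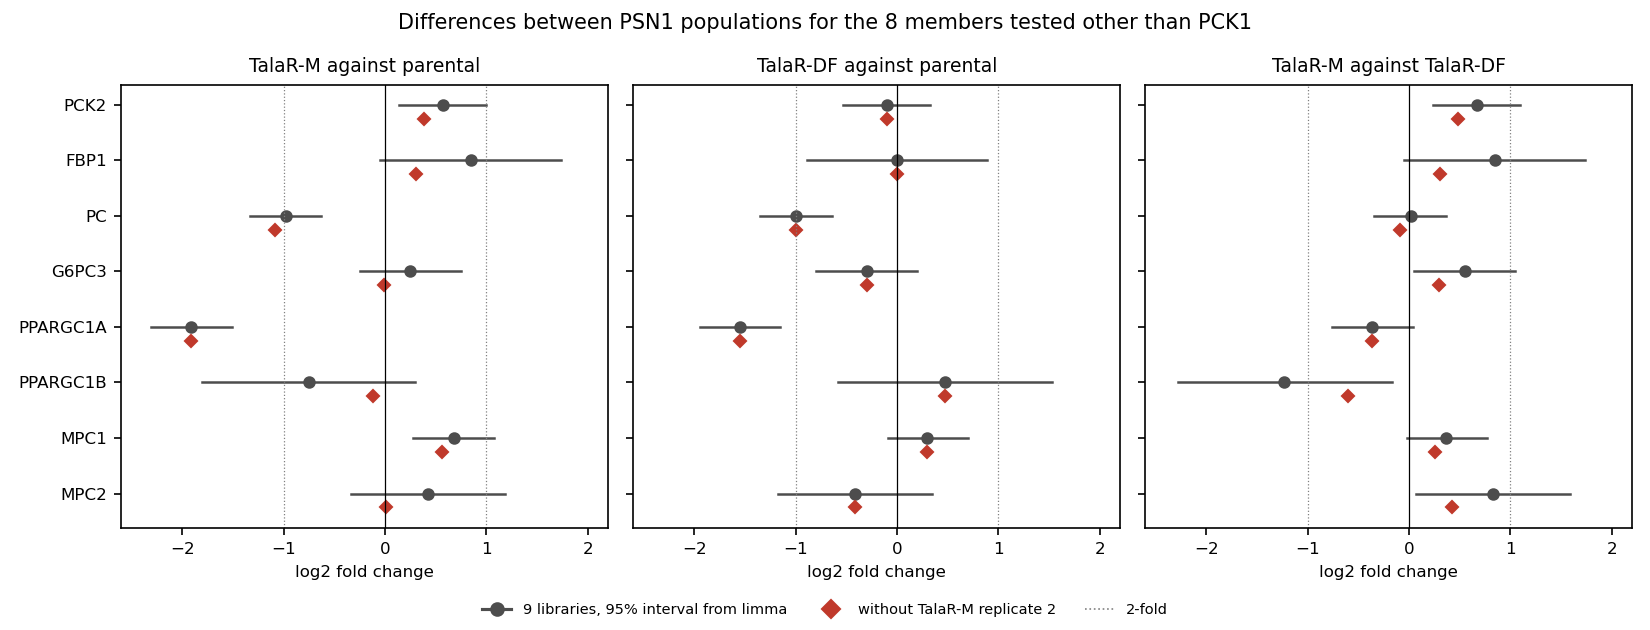
Log2 fold changes (x axis) of the 8 tested genes other than PCK1 (y axis) in the 3 comparisons. Circles with bars are limma estimates from 9 libraries with 95% intervals, diamonds are estimates without TalaR-M replicate 2, and dotted lines mark 2-fold. PC and PPARGC1A are to the left of 0 in both comparisons with parental cells, and the circle of PPARGC1B moves from -0.75 to -0.12 without the replicate.

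The genes tested were split into 10 equal groups by transcript length. TalaR-M replicate 2 deviated from the mean of replicates 1 and 3 by a median of 1.34 log2 units in the group of shortest transcripts and of -1.36 in the group of longest ones. PPARGC1B, with the longest transcript of the members at 10569 nt, deviated by -1.89, inside the 10th to 90th percentiles of its length group, -2.57 to -0.04. MPC1, the shortest at 904 nt, deviated by 0.34 where the median of its length group was 1.34. MPC2 deviated by 1.25 and PCK2 by 0.58, where their shared length group had a median of 0.16. PC deviated by 0.33 while its length group had a median of -0.81. The part of length in these results was not tested. PCK1 and PPARGC1A were listed at 0 in the replicate as in the other TalaR-M libraries.

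**Figure D3:**
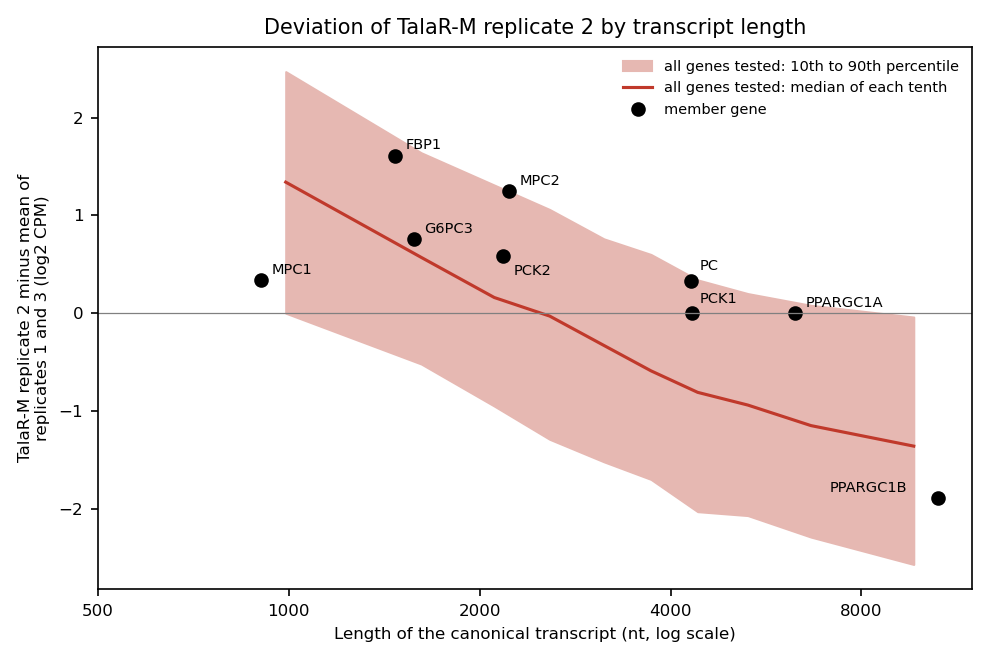
Deviation of TalaR-M replicate 2 from the mean of replicates 1 and 3 in log2 CPM (y axis) against the length of the canonical transcript in nt (x axis, log scale). The line and band are the median and the 10th to 90th percentiles in 10 length groups of all genes tested, and points are the 9 members tested. The medians run from 1.34 to -1.36, with MPC1 below the line and PC above it.

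Some members overlap a gene on the opposite strand in GENCODE 44. These are PCK2 with NRL, PC with LRFN4, G6PC3 with HDAC5, MPC2 with DCAF6, FBP1 and FBP2 with PCAT7, and PPARGC1A with a pair of lncRNAs. The libraries were stranded, but the sources used here do not say whether the counting used the strand, so the values of these genes are uncertain to that extent. PCK1 and MPC1 overlap no other annotated gene.

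Of 19 tested enzymes and carriers that gluconeogenesis shares with glycolysis or with the shuttles of the mitochondrion, 3 were called lower and 0 higher in TalaR-M cells against the parental line (15.8%, against 13.3% of all genes, with a median log2 fold change of -0.05 against -0.09 for all genes). Without TalaR-M replicate 2 the median was -0.25, against 0.01 for all genes. The genes called were ALDOC, an aldolase, at -3.55 (SE 0.14, adjusted p = 8.5e-07), the phosphoglycerate kinase PGK1 at -1.20 (adjusted p = 0.011) and the enolase ENO2 at -1.09 (adjusted p = 0.000338). Without TalaR-M replicate 2 PGK1 was at -0.89 and no longer called. In TalaR-DF cells 2 were lower and 0 higher (10.5%, against 9.73% of all genes, with a median of -0.08, against 0.01 for all genes). They were ALDOC at -2.37 (adjusted p = 9.84e-06) and ENO2 at -1.04 (adjusted p = 0.00057), or -0.97 and short of 2-fold without TalaR-DF replicate 3. ALDOC had 6.08, 5.99 and 5.93 log2 CPM in parental, 2.35, 2.50 and 2.51 in TalaR-M and 3.75, 3.55 and 3.58 in TalaR-DF libraries, in the same order of groups as PCK1. It was lower in TalaR-M than in TalaR-DF cells at -1.17 (adjusted p = 0.00107).

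Of 8 tested genes that set the hexose phosphate step, limma called 4 lower and 0 higher for TalaR-M against parental cells (median -1.15). That was 50%, against 13.3% of all genes. PFKFB4, a kinase that makes the activator of phosphofructokinase, was at -1.92 (SE 0.13, adjusted p = 1.58e-05). PFKFB3, of the same family, was at -1.71 (SE 0.51, adjusted p = 0.0442), and at -1.0 and not called without TalaR-M replicate 2. Its call was lost without any of the 3 parental and 3 TalaR-DF libraries too (adjusted p up to 0.125). HK2, a hexokinase, was at -1.41 (adjusted p = 0.0125) and PFKM, the muscle phosphofructokinase, at -1.32 (adjusted p = 0.0143). Without that replicate PFKFB4 alone of the 8 was called (median -0.82), where 13.9% of all genes were called. In TalaR-DF against parental cells limma called 0 of the 8, against 9.73% of all genes, with 2 at an unadjusted p under 0.05. In TalaR-M against TalaR-DF cells PFKFB4 at -1.09 (adjusted p = 0.00103) and HK2 at -1.24 (adjusted p = 0.0372) were lower. That was 25% of the list, against 6.93% of all genes. HK2 was at -0.82 and not called without that replicate, and its call in this comparison was lost without any of the parental and TalaR-DF libraries too (adjusted p up to 0.119).

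Around pyruvate itself, 25 genes for its supply and use were tested, and limma called 3 lower and 0 higher for TalaR-M against parental cells (median -0.39, or -0.18 without TalaR-M replicate 2). That share of 12% was near the 13.3% of all genes. PDK1 and PDK4 encode kinases that switch off pyruvate dehydrogenase, the enzyme that competes with PC for pyruvate. PDK4 had 5.20, 5.14 and 5.13 log2 CPM in parental libraries and 3.69, 1.64 and 3.69 in TalaR-M libraries, a log2 fold change of -2.15 (SE 0.49, adjusted p = 0.0151), or -1.47 without replicate 2 (adjusted p = 4.79e-08). Its adjusted p was between 0.0543 and 0.0582 without any of the 3 parental libraries. PDK1 was at -1.36 (SE 0.27, adjusted p = 0.00783), or -1.01 without it (adjusted p = 1.11e-07). The third was the lactate and pyruvate transporter SLC16A1, at -1.03 (adjusted p = 0.0216), or -0.70 and not called without replicate 2. In TalaR-DF cells limma called 0 of the 25 (median 0.02), against 9.73% of all genes, with 9 at an unadjusted p under 0.05. PDK4, at -1.06 (adjusted p = 0.198), was called there with TalaR-M replicate 2 out of the shared error (adjusted p = 2.94e-07). TalaR-M was below TalaR-DF cells for PDK1 alone (4% of the list, against 6.93% of all genes), at -1.05 (adjusted p = 0.0406). That call was lost at -0.70 without replicate 2 and also without any of the parental and TalaR-DF libraries (adjusted p up to 0.141).

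None of 19 citric acid cycle enzymes was called by limma in any of the 3 comparisons. Of all genes, 13.3% were called in TalaR-M and 9.73% in TalaR-DF against parental cells and 6.93% between the resistant populations. Among the 19, 3 had an unadjusted p under 0.05 in TalaR-M and 2 in TalaR-DF against parental cells and 4 between the resistant populations. The log2 fold changes against parental cells lay between -0.87 and 0.88 in TalaR-M and between -0.49 and 0.50 in TalaR-DF cells. None was called without TalaR-M replicate 2 in TalaR-M against parental cells, where the median was then 0.00. Of 9 tested genes of the glycerol and serine routes, which draw on phosphoenolpyruvate, SHMT2, the mitochondrial serine hydroxymethyltransferase, was lower in TalaR-M than in parental cells at -1.21 (SE 0.16, adjusted p = 0.000963). It was the only one called there, 11.1% of the list against 13.3% of all genes. In TalaR-DF against parental cells none of the 9 was called, against 9.73% of all genes. Between the resistant populations the share was 11.1%, against 6.93% of all genes. GPD1L, a glycerol phosphate dehydrogenase relative, was lower in TalaR-M than in TalaR-DF cells at -1.12 (adjusted p = 0.0289), and at -0.78 and not called without replicate 2. That call was lost without any of the parental and TalaR-DF libraries too (adjusted p up to 0.106).

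**Figure D4:**
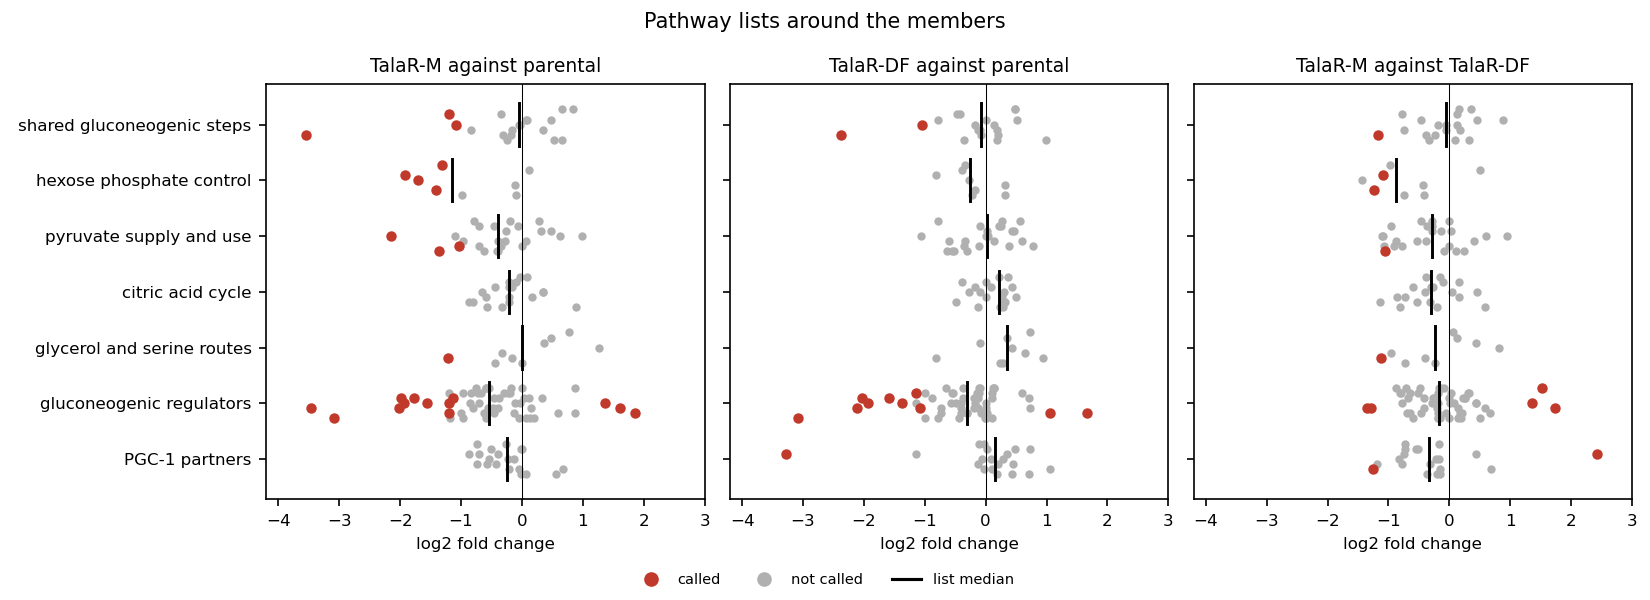
Log2 fold changes (x axis) of the tested genes in 7 lists around the members (y axis, with points spread for visibility) in the 3 comparisons. Red points were called, grey points were not, and black bars are list medians. The median of the hexose phosphate list in TalaR-M against parental cells is -1.15, or -0.82 without TalaR-M replicate 2, and that of the regulators is -0.54, or -0.18 without it.

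Of 55 tested transcription factors, coactivators and signalling genes that act on gluconeogenic genes, 10 were lower and 3 higher in the TalaR-M against parental comparison (median -0.54, or -0.18 with 9 lower and 4 higher without TalaR-M replicate 2), or 23.6% against 13.3% of all genes. In TalaR-DF against parental cells 8 were lower and 2 higher (median -0.30), or 18.2% against 9.73% of all genes, and 10 were lower without TalaR-M replicate 2. In TalaR-M against TalaR-DF cells 2 were lower and 3 higher (median -0.17), or 9.09% against 6.93% of all genes. Without TalaR-M replicate 2 these were 1 lower and 3 higher (median 0.02). HNF4A, the nuclear receptor that drives hepatic gluconeogenic genes with PGC-1α, had 2.99, 2.86 and 3.39 log2 CPM in parental libraries and was listed at 0 in all 6 resistant libraries. It was at least 8.45-fold lower in TalaR-M (adjusted p = 3.01e-06) and in TalaR-DF cells (adjusted p = 3.71e-06). HNF4A passed the filter on low values only through the parental libraries, so it could only be lower in the others. These p-values are therefore not read as support. The shares of 23.6% and 18.2% above include HNF4A and are not read further either. In drug-free media HNF4A was still listed at 0. Its parental level was close to the floor, so a return as small as that of PCK1 would be listed at 0 too.

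The pioneer factor FOXA2 had 4.61, 4.63 and 4.67 log2 CPM in parental, 1.16, 1.45 and 0.89 in TalaR-M and 2.81, 2.35 and 2.40 in TalaR-DF libraries. It fell by 3.47 on the log2 scale in TalaR-M (SE 0.19, adjusted p = 6.12e-06) and by 2.12 in TalaR-DF cells (SE 0.19, adjusted p = 0.000145). TalaR-M was below TalaR-DF cells at -1.35 (adjusted p = 0.00314), so FOXA2 kept the order of the groups seen for PCK1. FOXA1, its close relative, was in the opposite direction, at 0.59, 0.85 and 0.92 log2 CPM in parental, 3.10, 1.70 and 3.12 in TalaR-M and 2.65, 2.29 and 2.40 in TalaR-DF libraries. It rose by 1.86 in TalaR-M (SE 0.36, adjusted p = 0.00719) and by 1.66 in TalaR-DF cells (SE 0.36, adjusted p = 0.0144). The second call was lost without parental replicate 1 or 2 or TalaR-DF replicate 1 or 3 (adjusted p from 0.0512 to 0.0644).

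ATF3, a stress-induced factor known to repress PCK1, was at 1.89, 1.82 and 1.86 log2 CPM in TalaR-M libraries and at most 0.39 in the other 6. It rose over parental cells by 1.61 in TalaR-M (SE 0.16, adjusted p = 0.00018) and stood above TalaR-DF cells by 1.73 (adjusted p = 0.000319). ATF3 is near the floor of 1 CPM in every group. Over all settings its difference from parental cells ran from 0.39 to 2.68 (limma adjusted p up to 0.175), with the call kept in 15 of 17 alternatives. The insulin receptor INSR was higher in TalaR-DF than in parental cells by 1.06 (SE 0.19, adjusted p = 0.00525). In TalaR-M cells it was at 0.87 (adjusted p = 0.0114), and at 1.08 and called without TalaR-M replicate 2 (adjusted p = 7.69e-08). CEBPD was higher in TalaR-M than in TalaR-DF cells by 1.52 (adjusted p = 0.0158, or 0.0656 and 0.0727 without TalaR-DF replicates 2 and 3), and the nuclear receptor NR5A2 was lower at -1.29 (adjusted p = 0.0175), or at -0.96 and not called without TalaR-M replicate 2. The NR5A2 call was also lost without any of the 3 TalaR-DF libraries (adjusted p up to 0.0708).

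Of 20 tested partners of the PGC-1 coactivators and mitochondrial targets, none was called by limma in TalaR-M against parental cells, against 13.3% of all genes. Of the 20, 4 had an unadjusted p under 0.05, and 1 was called lower without TalaR-M replicate 2. UCP2 alone was called in TalaR-DF cells (5%, against 9.73% of all genes). Without that replicate 1 was higher and 2 lower in TalaR-DF against parental cells, the higher one being TFAM at 1.05 (adjusted p = 7.52e-08, against 0.0674 with all libraries). UCP2, a mitochondrial carrier, had 3.86, 3.72 and 3.79 log2 CPM in parental, 2.81, 3.52 and 2.44 in TalaR-M and 0.79, 0 and 0.73 in TalaR-DF libraries. UCP2 in TalaR-M against parental cells was at -1.17 without replicate 2 (adjusted p = 0.000704). It was lowest in drug-free media, unlike PCK1, at -3.28 against parental cells (SE 0.31, adjusted p = 0.000172). The TalaR-M mean was above the TalaR-DF mean by 2.42 (adjusted p = 0.00182). TFAM, which maintains mitochondrial DNA, was lower in TalaR-M than in TalaR-DF cells at -1.26 (adjusted p = 0.0469), and at -0.81 and not called without replicate 2. That call held only without TalaR-M replicate 1 among the 9 libraries left out in turn.

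**Figure D5:**
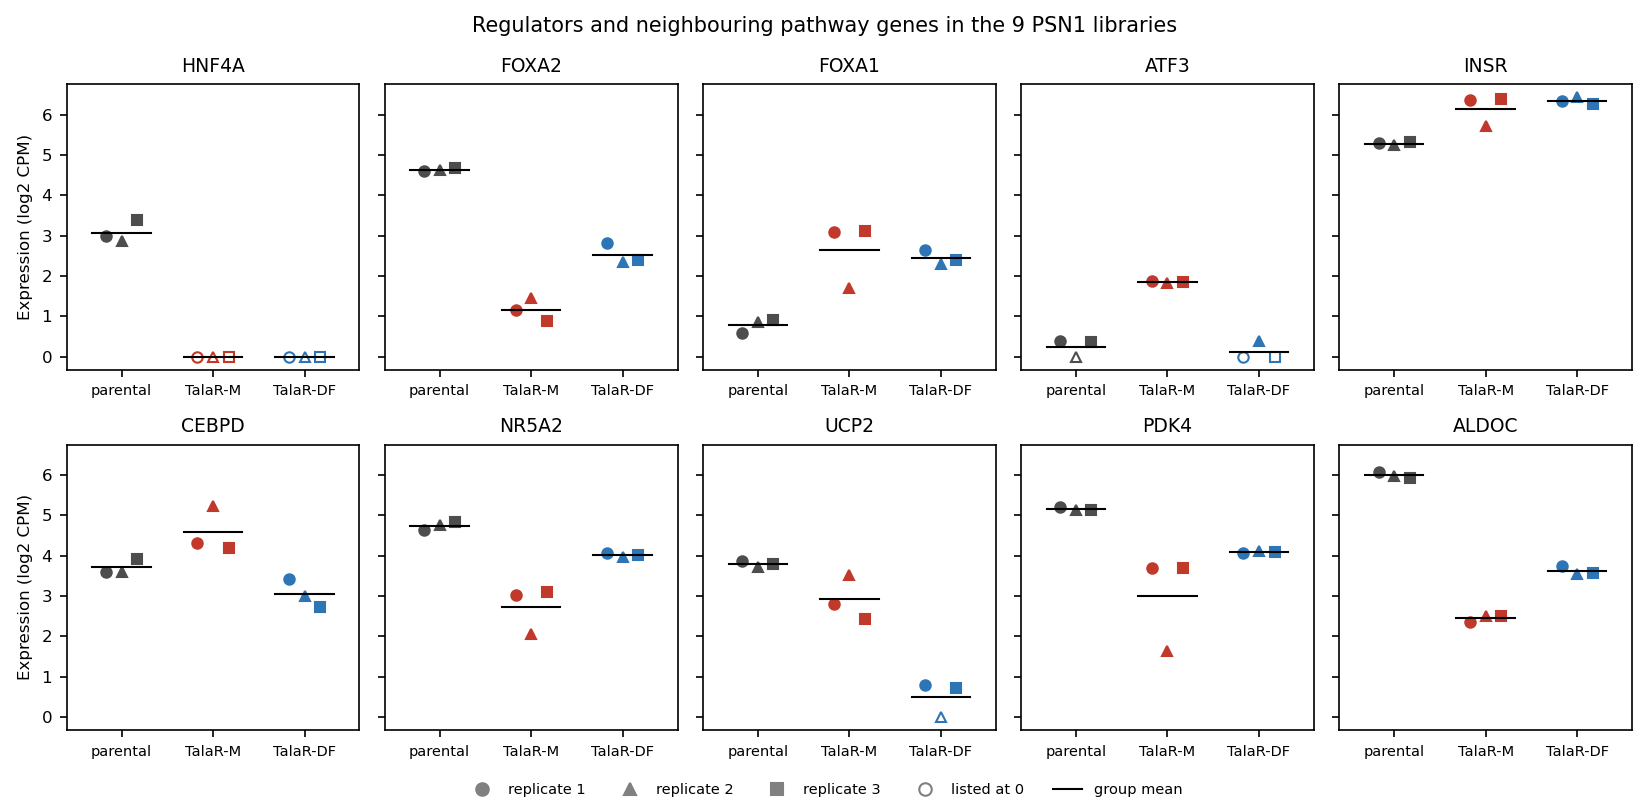
Level in log2 CPM (y axis) of 10 regulators and pathway genes in the 9 libraries by group (x axis), with a shape for each replicate, open points for values listed at 0 and lines for group means. HNF4A is at 0 in all 6 resistant libraries, FOXA2 and ALDOC are lowest in TalaR-M, and FOXA1 is higher in both resistant populations.

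Markers of tissues that express PCK1 were mostly at the floor. Of 13 hepatocyte markers 9, among them ALB, APOB and TTR, were listed at 0 in all libraries, as were 7 of 9 proximal tubule markers and 4 of 7 adipocyte markers, including ADIPOQ and PLIN1. The summed level of the hepatocyte list was 125 to 136 CPM in parental, 63.5 to 90.8 in TalaR-M and 48.6 to 52.0 in TalaR-DF libraries, and SERPINA1, which many epithelial cells express, fell by 1.59 in TalaR-M (adjusted p = 0.00103) and by 2.76 in TalaR-DF cells (adjusted p = 5.25e-05). The tubule list summed to 51.5 to 53.4 CPM in parental, 38.1 to 48.0 in TalaR-M and 18.0 to 19.7 in TalaR-DF libraries. The water channel AQP1 was lower in TalaR-DF than in parental cells at -1.78 (adjusted p = 4.9e-05), and CUBN was higher by 1.18 (adjusted p = 0.00302). The adipocyte list summed to 36.1 to 38.1, 11.1 to 15.3 and 11.6 to 13.8 CPM in the 3 groups in that order, and PLIN4 fell by 1.42 in TalaR-M (adjusted p = 0.000431) and by 1.47 in TalaR-DF cells (adjusted p = 0.000427).

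The remaining marker lists moved with the groups in their own ways. Acinar and islet markers summed to 3.62 to 4.39 CPM in parental, 2.28 to 5.32 in TalaR-M and 0 in TalaR-DF libraries, with 7 of 9, INS and GCG among them, at 0 throughout. Of 9 tested ductal markers, 3 were higher in TalaR-M (33.3%, against 13.3% of all genes) and 2 lower in TalaR-DF (22.2%, against 9.73%) than in parental cells. CFTR, among the higher ones, was listed at 0 in all parental and TalaR-DF libraries. It passed the filter on low values only through TalaR-M and could only be higher there, so the share of 33.3% is not read further. The lower ones were KRT7, whose call was lost without any of the 3 parental and 3 TalaR-DF libraries (adjusted p from 0.102 to 0.133), and MUC1, whose call was lost without any of the 3 parental libraries or TalaR-DF replicate 1 or 2 (adjusted p from 0.0633 to 0.0718). The list summed to 1230 to 1300 CPM in parental, 1810 to 5890 in TalaR-M and 1040 to 1180 in TalaR-DF libraries, and KRT19 rose by 2.62 in TalaR-M over parental cells (adjusted p = 0.00233), or by 2.07 without replicate 2. Of 8 tested fibroblast and leukocyte markers, 2 were higher and 4 lower in TalaR-M and 5 lower in TalaR-DF than in parental cells, and 4 were higher in TalaR-M cells without replicate 2. With all libraries these were 75% and 62.5% of the list, against 13.3% and 9.73% of all genes. DCN, among those higher in TalaR-M, also passed the filter only through TalaR-M and could only be higher there, so the share of 75% is not read further. The markers summed to 1730 to 1810, 1220 to 3380 and 857 to 969 CPM, with CD3E at 0 throughout. Within that list COL1A2 was lower by at least 233-fold in TalaR-M cells while its partner COL1A1 was higher by 1.97 on the log2 scale (adjusted p = 8.04e-05). The part of any of these in the level of PCK1 was not tested. In these bulk samples, fewer cells with PCK1 and less PCK1 RNA per cell cannot be told apart.

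The genes most like PCK1 over the 9 libraries, by Pearson r among 10216 genes with a group mean of at least 3 log2 units, were SLC20A1 (r = 0.9983), RGS1 (0.9978), MCTP1 (0.9974), SYN1 (0.997) and HILPDA (0.9966). The libraries share 3 groups, so this r mostly ranks genes by the order and spacing of the group means. RGS1, a regulator of G protein signalling, came closest in size, with means of 6.05 ± 0.09 log2 CPM in parental, 0.21 ± 0.18 in TalaR-M and 2.77 ± 0.03 in TalaR-DF libraries (SD, n = 3). SYN1 had 6.24 ± 0.08, 0.77 ± 0.27 and 2.73 ± 0.15 in the same order. The phosphate transporter SLC20A1 had the same order over a narrow range, with 9.26 ± 0.02, 8.02 ± 0.05 and 8.49 ± 0.03. HILPDA, a lipid droplet protein, had 5.77 ± 0.04, 4.15 ± 0.02 and 4.88 ± 0.03. Among the members r with PCK1 was 0.96 for PPARGC1A, 0.88 for PC and -0.87 for MPC1, and between -0.61 and 0.35 for the other 5 tested.

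Neighbours of PCK1 on chromosome 20 were compared by their group means over the 5 nearest tested genes on each side. PMEPA1, 80.3 kb after PCK1, differed from parental cells by -1.36 in TalaR-M and by -1.99 in TalaR-DF cells. RBM38, 151.7 kb before it, differed by -0.75 and -0.73. Over all 10 neighbours the TalaR-M difference ran from -2.45 (APCDD1L) to -0.09 (VAPB), and none approached the difference of PCK1.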

How the data were processed

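RNAseq libraries of PSN1 cells were analysed, 3 each from the parental, TalaR-M and TalaR-DF groups. Libraries were stranded and poly(A) selected. The authors deposited log2 values of the CPM (read counts scaled to library size), computed with effective library sizes and a prior count of 1, and negative values were replaced by 0. This unit was read from the values, whose steps gave whole reads within 0.05 for 100.0% of values under 50 CPM. hg38 comes from the submitters' processing notes; the aligner, counting method and annotation are not given in the sources used here. Other cell lines of the series were not analysed here.

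The members and gene lists were chosen with earlier results of these data known. Those genes that passed 1 CPM in 3 or more libraries were fitted in limma 3.58.1 (R 4.3.3), with 1 model for the 3 groups and a mean-variance trend. A call needed a Benjamini-Hochberg adjusted p under 0.05, over 12471 genes, and a log2 fold change of at least 1 in size. No pseudocount was added. A fold against a group at 0 is a bound at 1 CPM. Standard errors and 95% intervals are from the model. The test was checked on simulated data with the same small spread in all libraries. That check held no library that stood apart as TalaR-M replicate 2 did. An exact two-sided permutation test with 3 against 3 libraries cannot reach the threshold and was not used.

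Genes were named by a rule: the members, up to 2 called genes with the largest rise and 2 with the largest drop per list and comparison, the 5 genes most correlated with PCK1 and the 3 largest drops after PCK1. PFKM, SLC16A1, neighbours of PCK1 and markers at 0 were named outside it after their values were seen. The design had allowed for unlogged values, and the test for log values was used. Alternatives were other pseudocounts, filters, scalings, thresholds and fits, a block for the replicate number, and leaving out each library. Gene positions and lengths came from GENCODE 44, matched for 99.1% of the genes tested. Plots used Python 3.11.15 and matplotlib 3.10.9.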

Additional observations from a re-analysis of the deposited data

How the results depend on the processing

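Counts of genes called are given first for TalaR-M and second for TalaR-DF, both compared with parental cells, and last for the resistant populations compared with each other. They were 1653, 1214 and 864, and with a pseudocount of 8 CPM 711, 426 and 272. With no fold threshold they numbered 2938, 2315 and 1502, and a fit of only the groups compared gave 484 in the last. Leaving out each library in turn gave 1298 to 2045, 983 to 1417 and 578 to 1043. The members called in the first and second comparison dropped from 2 to 1 with a pseudocount of 8 CPM and with a minimum of 5 CPM, where PPARGC1A was lost. In the third they rose from 1 to 3 with a pseudocount of 0.1 CPM. The pseudocounts were added with each listed 0 taken as no reads, so the low one widens differences from the floor. G6PC3 in TalaR-M against parental cells reversed to -0.02 with array weights and to -0.01 without TalaR-M replicate 2. PC in TalaR-M against TalaR-DF cells reversed to -0.09 with array weights, to -0.09 without TalaR-M replicate 2 and to -0.05 without TalaR-DF replicate 3. Leaving out each library gave -0.01 to 0.42 for the first and -0.09 to 0.09 for the second of these. The cause was not tested. Over all settings PCK1 ranged from -12.28 to -5.98 in TalaR-M and from -5.48 to -4.70 in TalaR-DF against parental cells. The parental libraries also served to choose PCK1, so these ranges are a description. Of 480 values of single members, 458 kept their direction and side of the threshold. Of all values of single named genes, list genes included, 1318 did so and 141 kept their direction but lost the call.

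A replicate block gave 1546, 1132 and 750 genes called and changed no call of a member. Deviations of same-numbered libraries correlated between -0.417 and 0.217. They are taken from means of 3 libraries, with TalaR-M replicate 2 among those of its group. They therefore do not settle whether the replicate numbers paired the samples. Rescaling by the median ratio moved the median of all genes from -0.09 to 0.01, from 0.01 to -0.01 and from -0.09 to 0.03. Depth limits what a value of 0 means to 14 reads or fewer.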
